A study of Homo sapiens with 8 samples.

Results

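CTCF peaks of HT1080 cells were examined over 2 Mb of chromosome 4 (hg19 54000000 to 56000000), the stretch that holds FIP1L1, CHIC2, PDGFRA, KIT and KDR. A peak belonged to the region if its centre lay between these positions, whatever its strength. By this rule, 28 of the 47470 peaks of control cells and 12 of the 29558 peaks of CBL0137-treated cells were members. HT1080 is a human fibrosarcoma line labelled as ras positive, and both groups consisted of this line alone. Control cells were left untreated, and the others received CBL0137 at 3 µM for 6 h. Each group comprised 2 ChIP libraries made with an anti-CTCF antibody and 2 input libraries, 8 in all. The lists combine the replicates of a group, so that no value per library and no spread between replicates could be given, and the depth of a library is not shown in them. No test was therefore possible, and the intervals below are Wilson 95% intervals, which cover counting error only.

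CTCF binds DNA through its zinc fingers and stops the extrusion of chromatin loops by cohesin, mostly at pairs of sites whose motifs point towards each other. Such sites can insulate a gene from the enhancers of its neighbours. The region studied is a textbook case, because in gliomas with mutant IDH the methylation of CTCF sites weakens a boundary beside PDGFRA and lets the receptor gene contact enhancers near FIP1L1. PDGFRA encodes a receptor for platelet-derived growth factors, and its neighbours KIT and KDR encode the receptors for stem cell factor and for vascular endothelial growth factor. FIP1L1 encodes a subunit of the polyadenylation machinery and, after a deletion that removes CHIC2, fuses with PDGFRA in some cases of hypereosinophilia. HT1080 cells are known to carry a mutation in IDH1 themselves. Neither DNA methylation nor contacts between FIP1L1 and PDGFRA were analysed here, so that the peaks alone do not show an insulated neighbourhood. CBL0137 is a curaxin, a small molecule that intercalates into DNA and disturbs its contacts with histones.

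The motif matches around PDGFRA are shown first, with their order and strands, although no boundary was located in these data. A weight matrix of 20 bases was built from occurrences of the core CCANNAGNNGGC on both strands of control peaks on other chromosomes. The best score within 400 bp around each peak centre was called a match if at most 1% of windows 10 kb away reached it. The sequences below run 5′ to 3′ on the strand of the match, with the core in capitals, and are 30 bases long on GRCh37, the same build as hg19. The first comes from the last matched peak before CHIC2, the second from the only matched peak of the 2 between CHIC2 and PDGFRA, and the third from the first peak inside PDGFRA.
chr4:54774969-54774998, plus strand, lost: ccagggtggACAAAAGAGGGCagtgttcac
chr4:55084138-55084167, minus strand, kept: atttctaaaCCACTAGAGGGAgcaagaggc
chr4:55099624-55099653, minus strand, kept: ccccggagcCCACTAGAGGGCgcgacagcc
The next 4 were added after their values were seen. They are from the second peak inside PDGFRA, from a lost and a kept peak between PDGFRA and KIT, and from the lost peak inside KIT.
chr4:55100584-55100613, minus strand, kept: tacgagtggCCAGCAGATGGCagtgttggt
chr4:55250929-55250958, plus strand, lost: gtagatttgCCAGCAGGTGGCagaatcaga
chr4:55300036-55300065, minus strand, kept: tctcttctgCCAGCAGGAGGCagtggtcac
chr4:55549958-55549987, plus strand, lost: cttcttttgCCACCAGGTGGCacgcttgtg
The core has 8 fixed letters. The first and the second sequence matched 7 of them and the other 5 matched all 8, so that both kept and lost peaks had a complete core. Of these 5, 4 are the ones added after their values were seen, so the printed sequences do not show how usual a complete core was. Among the matches not printed, that of the lost peak at 55827601 matched all 8 letters. Those at 54063401, 54179801, 54467751, 54572651, 54670951 and 55189001 matched 7, and those at 54357251 and 55874951 matched 6.

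Of the 28 control peaks, 12 were overlapped by a peak of CBL0137-treated cells by at least 1 bp and are called kept, whereas 16 were not and are called lost. The lost share was 57.1% (39.1% to 73.5%). Over the whole control list 42.9% of peaks were lost, and on chromosome 4 the share was 52.0%, so that the interval for the region included both. On the treated side, each of the region's 12 peaks overlapped a control peak and none had arisen (0 of 12, upper limit of the interval 24.2%), against 8.07% of peaks in the whole treated list. The region held 14.0 control peaks per Mb, against 11.1 over chromosome 4, and 6.0 treated peaks per Mb, against 5.7. The study itself asked that the shared stretch exceed 50% of whichever peak is larger, and by that rule 10 control peaks of the region were kept and 18 lost, against 50.7% lost over the whole list.

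**Figure D1:**
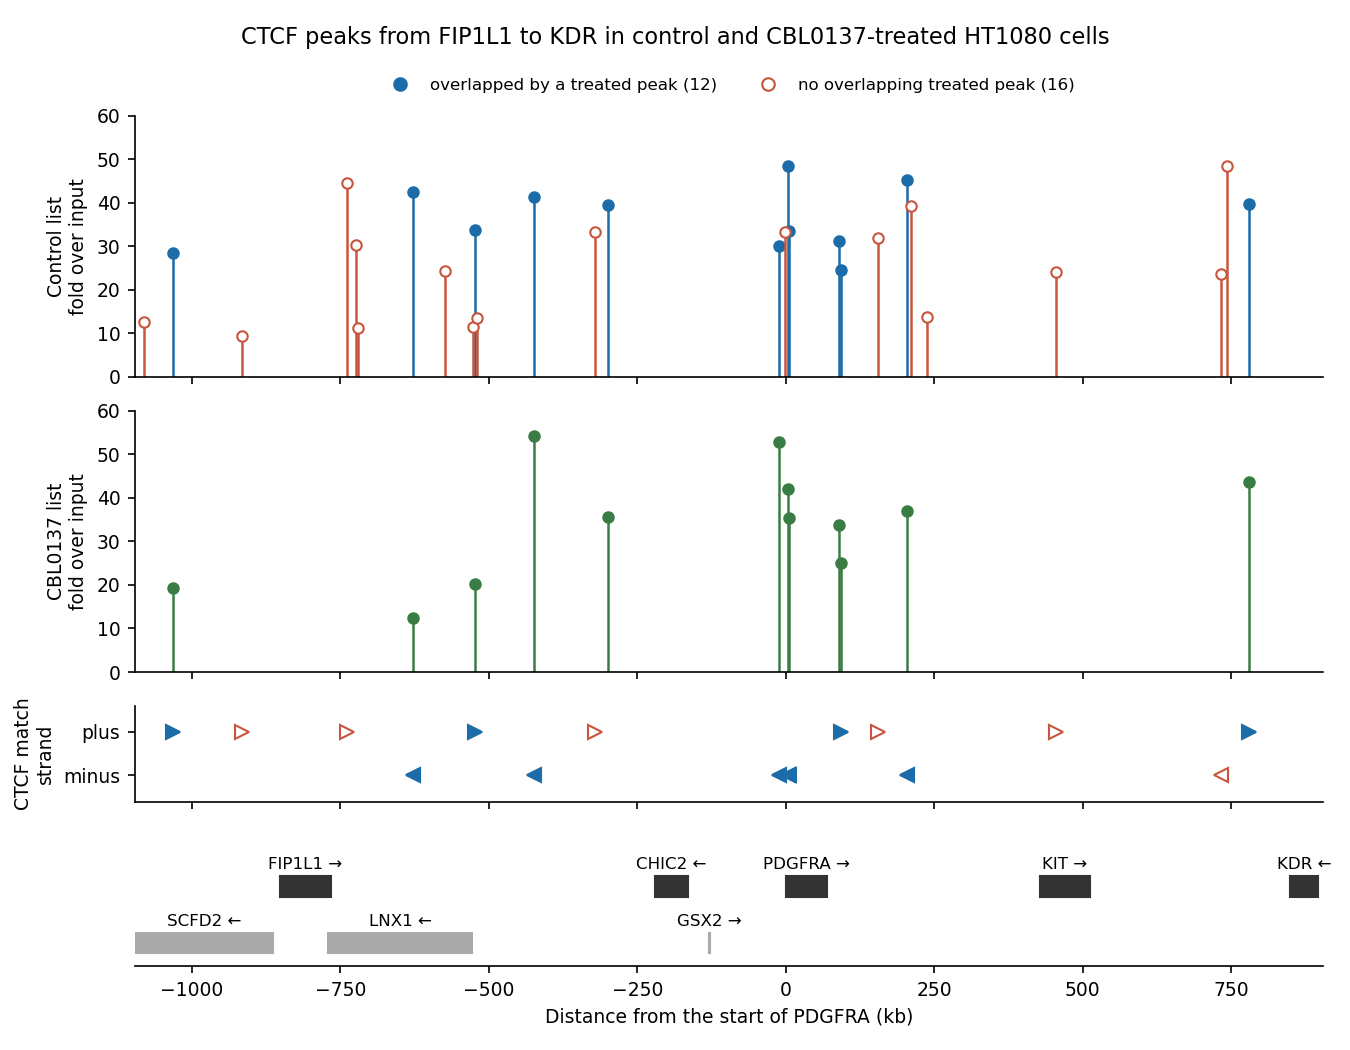
Control and treated peaks from FIP1L1 to KDR against the distance in kb from the start of PDGFRA, with the fold enrichment over input in each list as the height of a stem, the strand of each CTCF match as an arrowhead, and the genes below (arrows give the direction of transcription). Filled blue marks stand for the 12 kept and open red marks for the 16 lost control peaks, green marks for treated peaks, and no peak of either list lies on FIP1L1, CHIC2 or KDR.

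Between the end of FIP1L1 and the start of PDGFRA lay 13 control peaks, of which 5 were kept and 8 lost. The counts by place, here and below, are small. They stand beside 42.9% lost over the whole list and 52.0% on chromosome 4, and no difference from these shares was tested. Neither FIP1L1 (ENSG00000145216, 54243736 to 54330549, plus strand) nor CHIC2 (ENSG00000109220, 54875956 to 54930772, minus strand) had a peak on its body in either list. The control peak nearest to FIP1L1 on its left lay 63.8 kb away in a coding exon of SCFD2, a gene of the Sec1 family, and the nearest on its right lay 26.7 kb away in an intron of LNX1, which encodes a ubiquitin ligase. Both were lost. In treated cells the nearest peaks were therefore 180.0 kb and 137.0 kb from FIP1L1. The space free of treated peaks around the gene ran from 54063700 to 54467801, or 404.0 kb.

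Left of FIP1L1, all 3 control peaks were in SCFD2. The peak at 54063401 to 54063700, in an intron, had a fold enrichment of 28.5 in the control list and was kept at the same position with 19.3 in the treated list. Its neighbours at 54015251 to 54015350 and 54179801 to 54179900 were weak, with 12.5 and 9.37, and both were lost. The second of them is the one nearest to FIP1L1 and had the lowest fold of the region.

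LNX1 and the noncoding gene ENSG00000249341 beside it held 8 of the 11 control peaks between FIP1L1 and CHIC2. Of these 8, 2 were kept, too few peaks to set them apart from the 52.0% lost on chromosome 4. In the introns of LNX1, the peaks at 54357251 to 54357500 and 54372201 to 54372350 had fold enrichments of 44.6 and 30.2 and were lost, as were the weaker ones at 54374901 to 54375000, with 11.2, and at 54522601 to 54522800, with 24.3. The peak at 54467751 to 54467950, with 42.4 in control cells, was kept, although its treated counterpart spanned 100 bp and had a fold enrichment of 12.4. The shared stretch was exactly 50% of the wider peak, so that it counts as lost under the study's rule. In ENSG00000249341, a peak at 54572651 to 54572950 with 33.8 was kept, with 20.2 in the treated list, between neighbours at 54568551 to 54568700 and 54576001 to 54576150 that were lost and had 11.5 and 13.6. The kept peak of this cluster was the strongest of its 3 members.

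Nearer to CHIC2 the peaks were sparse. An intergenic peak at 54670951 to 54671300 had a fold enrichment of 41.3 and was kept, with 54.1 in the treated list, the highest treated value of the region. The peak at 54774851 to 54775150, in an intron of the noncoding gene ENSG00000249706, had 33.2 and was lost. The intergenic peak at 54796201 to 54796500 had 39.4 and was kept at the same position with 35.6. CHIC2 itself and GSX2, a homeobox gene, lay within the widest gap between control peaks of the region, 287.0 kb from 54796500 to 55083951, which contains no unknown bases. Of the 2123 gaps between neighbouring control peaks of chromosome 4, 5.98% were at least as long, and the median gap was 47.5 kb on the chromosome and 45.8 kb in the region. The peaks on either side were kept, and the gap measured 288.0 kb in the treated list.

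Around the start of PDGFRA (ENSG00000134853, 55095447 to 55164412, plus strand), 3 of 4 control peaks were kept. The first, at 55083951 to 55084300, is intergenic and lies 11.32 kb before the start. Its fold enrichment was 30.0 in the control list and 52.9 in the treated list. The second, at 55094251 to 55094550, lies 1.05 kb before the start and had 33.3, and it was lost, with the nearest treated peak 4.5 kb away. It is the control peak nearest to the start of any of the 5 genes. The peaks inside the gene, both in an intron, were at 55099451 to 55099800 and at 55100451 to 55100800, with 48.3 and 33.5 in the control list and 42.0 and 35.3 in the treated list. All 3 kept peaks here had a motif match. The lost one had none, its best score ranking at percentile 56.58 among windows 10 kb away from peaks.

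**Figure D2:**
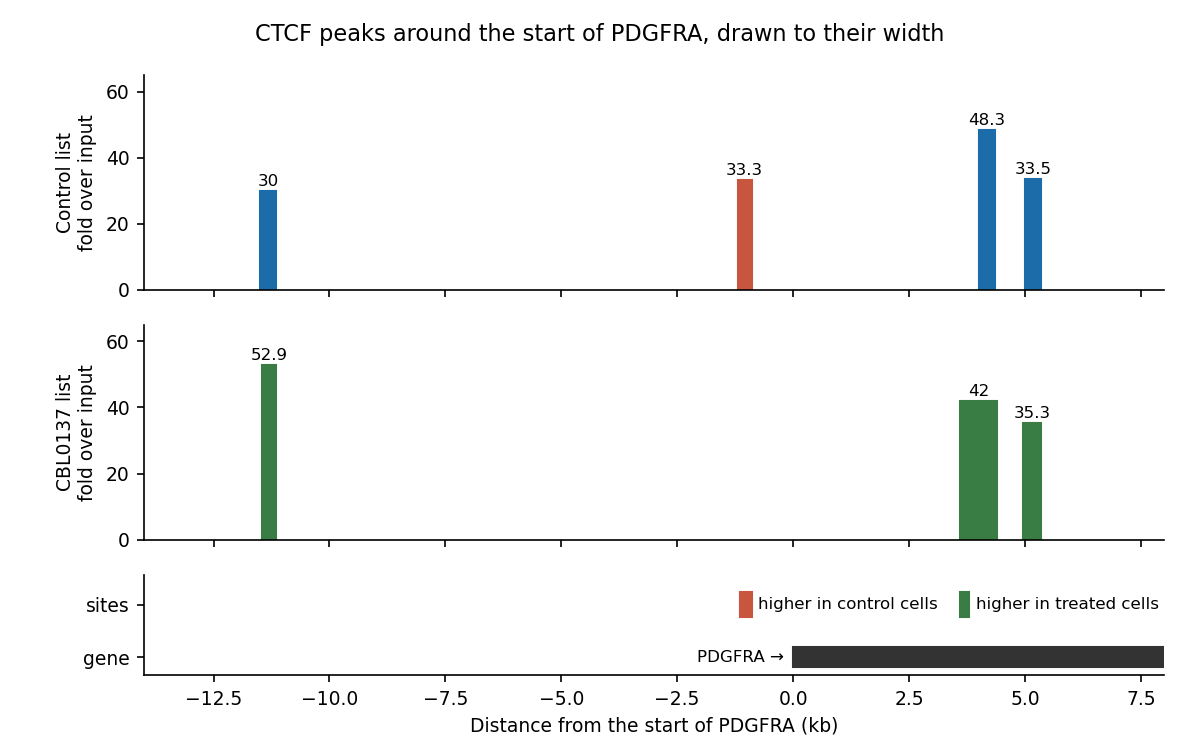
Peaks drawn to their width against the distance in kb from the start of PDGFRA, with the fold enrichment over input as height (top, control peaks, blue kept and red lost; middle, treated peaks, green; bottom, sites of the direct comparison and the gene). The peak 1.05 kb before the start appears in control cells only, and the first intronic peak is wider in treated cells, where it covers the site higher in treated cells.

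The first intronic peak of PDGFRA grew from 350 bp to 800 bp, to 55099051 to 55099850, which was the widest treated peak of the region. Over the lists as a whole, 15.0% of 27003 pairs of a single control and a single treated peak were wider in treated cells and 62.4% were narrower. In the region 3 of the 12 kept peaks were wider, 7 narrower and 2 equal. Those wider in treated cells were the 2 in PDGFRA and the one at 55874951 left of KDR. Because of its width the treated peak shared only 43.8% of its length with the control peak, which makes the site lost under the study's rule even though the control peak lay wholly inside it. The second intronic peak measured 350 bp in control and 400 bp in treated cells.

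**Figure D3:**
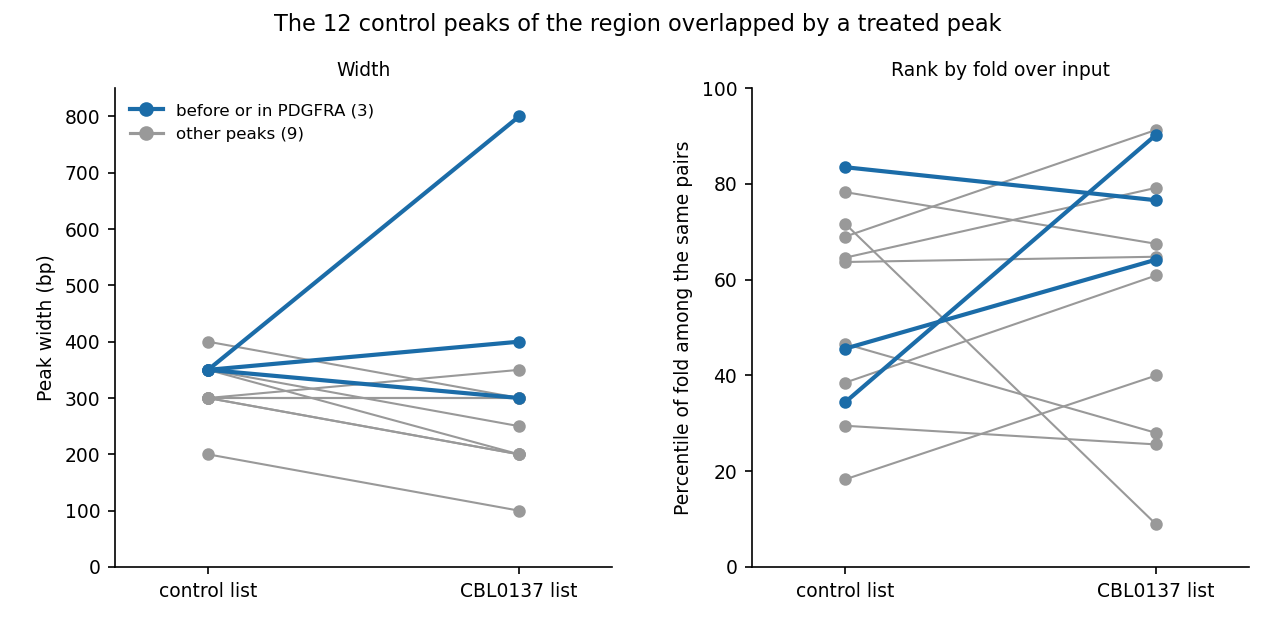
Width in bp and percentile of the fold enrichment among the 27003 pairs of the whole lists for the 12 kept peaks, with a line joining the control and the treated peak. Blue lines (others grey) are the 3 kept peaks before or in PDGFRA, of which the first intronic one spans 800 bp in treated cells and the one 11.32 kb before the gene stands at percentile 34.4 in control and 90.3 in treated cells. At the latter peak the authors' direct comparison of the conditions has no site in either direction.

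The lists differ in length and mostly weak control peaks have no treated counterpart, so a percentile within each list has no common reference. The 27003 pairs were therefore ranked by fold enrichment once in control and once in treated cells, over the same pairs. Of the 12 kept peaks 7 had the higher rank in treated cells, near the 51.3% of all pairs. The peak 11.32 kb before PDGFRA stood at percentile 34.4 of the pairs in control and 90.3 in treated cells, and the intronic peaks at 83.5 and 76.6 and at 45.6 and 64.2. At the peak 11.32 kb before PDGFRA, the authors' direct comparison of the conditions, described below, has no site in either direction. The peak in LNX1 at 54467751 stood at percentile 71.7 and 8.9. Without values per replicate, these ranks are a description, and no change of a single peak was tested.

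Between PDGFRA and KIT, 3 of 6 control peaks were kept. The closely spaced intergenic peaks at 55185101 to 55185500 and 55189001 to 55189350, beyond the end of PDGFRA, had fold enrichments of 31.3 and 24.6 in the control list and were kept with 33.8 and 25 in the treated list. The peak at 55250851 to 55251050 had 31.9 and was lost. Farther on, the peak at 55299901 to 55300200 had 45.3 and was kept, with 37 in the treated list, whereas its neighbour at 55307051 to 55307350, in an intron of the noncoding gene ENSG00000251264, had 39.2 and was lost. The last of the group, at 55332701 to 55332900, was weak, with 13.7, and was also lost. The strong neighbours at 55299901 and 55307051 thus had opposite fates, whereas those at 55185101 and 55189001 were both kept.

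KIT (ENSG00000157404, 55523434 to 55606949, plus strand) had a single control peak on its body, in an intron at 55549801 to 55550100, with a fold enrichment of 24. It was lost, and its nearest treated peak was 249.65 kb away, the largest such distance among the lost peaks of the region. Its motif match scored 21.53 against a threshold of 13.32. In the treated list no peak lay between 55300150 and 55874951, a stretch of 575.0 kb that contains all of KIT and was the widest gap between treated peaks of the region.

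KDR (ENSG00000128052, 55944648 to 55991762, minus strand) had no peak on its body in either list, and the peak nearest to its start was 33.5 kb away in control and 59.2 kb away in treated cells. Left of it lay 3 intergenic control peaks. Those at 55827601 to 55827850 and 55837551 to 55838100, with fold enrichments of 23.6 and 48.5, were lost, although the latter was the strongest and, at 550 bp, the widest control peak of the region. The peak at 55874951 to 55875250, with 39.7, was kept with 43.6 in the treated list and was the nearest to KDR on that side, 69.4 kb from it. On the other side, the nearest control peak, at 56025251 to 56025350, was outside the region and had 16.5, and it was lost. At the opposite edge, the first control peak outside, at 53881851 to 53882150, had 59.8 and was kept.

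The strength of a peak in control cells and its fate were related in the region as in the whole list, though with much overlap. The kept peaks had a median control fold enrichment of 36.6 (24.6 to 48.3), and the lost peaks of 24.1 (9.37 to 48.5). The lost peaks comprised 6 weak peaks between 9.37 and 13.7, below any kept peak, and 10 between 23.6 and 48.5, within or near the range of the kept peaks. When the control list was divided into quartiles of fold enrichment, all 6 peaks of the region in the weakest quartile were lost, against 80.2% of that quartile in the whole list. In the second quartile 3 of 5 were lost, against 51.2%. In the third 4 of 8 were lost (21.5% to 78.5%), against 28.4%, and in the strongest 3 of 9 (33.3%, 12.1% to 64.6%), against 11.8%. The lost share was thus higher than that of the whole list in each quartile. With 5 to 9 peaks in a quartile, the interval still included that share in all but the strongest, where its lower bound was just above. Chromosome 4 as a whole also lost more than the whole list, 52.0% against 42.9%, and its share by quartile is not given here. Peaks are not replicates, and no difference from the rest of the genome was tested.

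**Figure D4:**
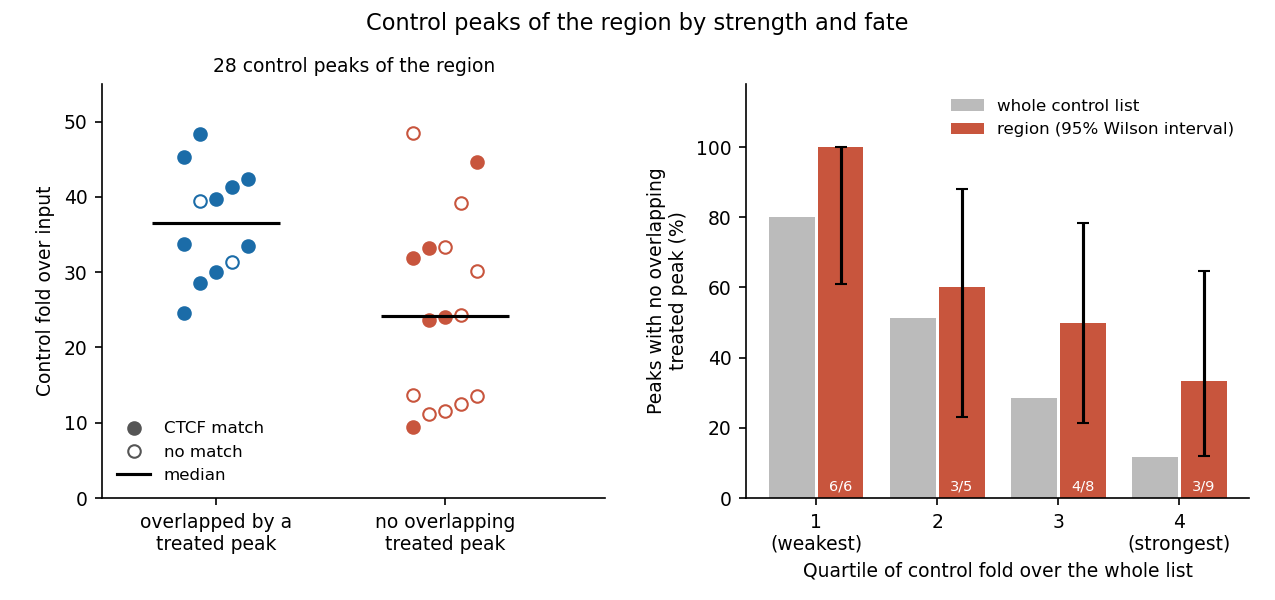
Left, control fold enrichment over input of the 12 kept and 16 lost peaks of the region, with medians as lines and filled points for peaks with a CTCF match. Right, share of lost peaks in each quartile of control fold for the region (red, Wilson 95% interval, number lost of number in the bar) and for the whole control list (grey), falling in the region from 6 of 6 to 3 of 9.

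The authors also compared the conditions directly with both replicates, which gave a list of sites higher in control cells and one of sites higher in treated cells, and only the positions of these sites were used here. In the region 14 sites were higher in control cells, each at a control peak, and 1 was higher in treated cells. Such a site was therefore found at 14 of the 28 control peaks, against 51.2% of the whole control list. Of the 16 lost peaks 10 did so, against 78.4% of all lost peaks, and the other 6 were the weak peaks between 9.37 and 13.7. Among the lost peaks at such a site were those 1.05 kb before PDGFRA, in the intron of KIT and at 55837551 left of KDR. Of the 12 kept peaks 4 overlapped such a site, near the 30.8% of all kept peaks, namely those at 54572651, 54670951, 55189001 and 55299901. A peak was still called there in treated cells, although the direct comparison placed at least part of the position higher in control cells. The fold enrichment over input did not always point the same way. From control to treated cells it fell from 33.8 to 20.2 at 54572651 and from 45.3 to 37 at 55299901. It rose from 41.3 to 54.1 at 54670951 and hardly differed at 55189001, with 24.6 and 25. At 54467751 it fell from 42.4 to 12.4, but that kept peak was at no such site. The reason for these differences was not tested.

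The only site higher in treated cells was at 55099051 to 55099250, in the intron of PDGFRA. It lay 200 bp to the left of the first intronic control peak and overlapped none, but it was covered by the widened part of the treated peak. Sites of this kind were found at 1 of the 12 treated peaks of the region and at 7.25% of the whole treated list.

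A CTCF match was found in 16 of the 28 control peaks of the region, against 54.8% of control peaks over the genome. Of the kept peaks 10 of 12 had a match, against 70.2% of all kept peaks, and of the lost peaks 6 of 16, against 34.3% of all lost peaks. Matches were thus more frequent among kept than among lost peaks, in the region as in the whole list. The kept peaks without a match were those at 54796201 and 55185101. A match is a description of the sequence, and its absence says only that no such sequence reached the threshold in this window.

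The plus strand carried 9 of the 16 matches, against 50.5% in the whole list. The 3 kept matches before and in PDGFRA were all on the minus strand, so that they point towards FIP1L1 and CHIC2, and the next match beyond the gene, at 55189001, was on the plus strand and points towards KIT. In control cells the minus strand match 11.32 kb before PDGFRA faced the plus strand match of the peak at 54774851 over 309.0 kb, with CHIC2 and GSX2 between them. The match at 54774851 scored 14.4, not far above the threshold of 13.32, and a kept peak without a match, at 54796201, lay between the 2. The peak at 54774851 was lost, and the next match of a kept peak to the left, at 54670951, was on the minus strand as well. This facing pair was therefore absent from the treated list. Only neighbouring matches were paired, and the kept plus strand matches farther left, at 54063401 and 54572651, still faced the one before PDGFRA, with other matches between. Of the 5 neighbouring pairs of matches that faced each other in control cells, 1 had both members kept, that of the peaks at 54572651 and 54670951. The same held for 2 of the 5 pairs that pointed away from each other and for 2 of the 5 on the same strand. Over the genome both members were kept in 53.8% of facing pairs, 57.1% of pairs pointing away and 54.6% of pairs on the same strand, and 5 pairs of a kind are too few to set the orientations apart. The pair of the peak in KIT and the one at 55827601, 278.0 kb apart, lost both. For treated cells, the matches of the kept control peaks were used, read around the control peak centre. Among them 3 neighbouring pairs faced each other. They included the pair at 55189001 and 55299901, whose peaks were separated by another match in control cells.

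Because methylation acts on CpG dinucleotides, these were counted in the 20 bases of each match. Of the 16 matches of the region, 3 held a CpG, against 34.3% in the whole list, and 16 matches are too few to set the region apart. They were the matches of the first intronic peak of PDGFRA, which held 2 and was kept, and of the peaks in KIT and at 54179801 in SCFD2, which held 1 each and were lost. The match 11.32 kb before PDGFRA held none. With the 5 bases on either side, the matches at 54357251 and 55100451 held 1 CpG each as well. Peaks without a match were not counted. The GC content over 500 bp was 71.4% at the first intronic peak of PDGFRA, the highest of the region, and 59.8% at the lost peak 1.05 kb before the start, the highest among lost peaks. Its median was 47.5% for the kept peaks (33.6% to 71.4%) and 40.9% for the lost peaks (32.0% to 59.8%), so that the ranges largely overlapped. Over the whole list the medians were 48.2% for kept and 43.0% for lost peaks. The part of GC content in the fate was not tested.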

How the data were processed

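CTCF ChIP-seq of control and CBL0137-treated HT1080 cells was analysed from 4 deposited lists. Alignment to hg19 was done by the authors with Bowtie2 2.2.3, ambiguous reads were dropped, duplicates were removed with SAMtools 1.5, and PePr was run at a p-value cutoff of 0.05 with windows of 100 bp. The control and treated lists give the position of a peak and the deposited ratio of ChIP to input signal (fold enrichment), for which the authors modelled both replicates jointly. Of the deposited significance columns, the p-value adjusted as an FDR served here only as a threshold in the alternatives. The other lists hold the sites of the authors' direct comparison, of which only positions were read, since their fold and p-value columns are the authors' own results. The deposited files have no headings, and their columns were read in broadPeak order. Depth, which sets whether a weak peak is called, cannot be read from the lists. The paper gives read counts for each library, which were close between the groups for ChIP, and the part of depth was not tested.

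Groups came from the sample titles. Peaks were placed by their centre on GENCODE v44lift37 genes, leaving out the readthrough gene ENSG00000282278, which spans FIP1L1 to PDGFRA. The fate of a peak was set by an overlap of at least 1 bp. The matrix was built from 10808 core matches on chromosomes other than 4 in 2 rounds, and its threshold came from 46605 windows. Described in full were the peaks inside or nearest to each of the 5 genes and those between FIP1L1 and PDGFRA. Sequences were printed for matches between CHIC2 and PDGFRA and the nearest matched peak on each side, plus the 4 added ones. The members and lists were chosen with earlier results of these data known. Ranks over the same pairs in both lists were chosen after seeing the data. Other thresholds and overlap rules were tried. Tables were handled with pandas 2.3.3 and numpy 2.4.6 in Python 3.11.15, sequences with pysam 0.24.0, Wilson intervals computed with scipy 1.17.1, and plots with matplotlib 3.10.9. The overlap routine was tested on simulated data and placed 100.0% of 20000 intervals correctly, and 85.6% of 2000 planted motifs were found at their place and strand.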

Additional observations from a re-analysis of the deposited data

How the results depend on the processing

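No paired analysis was possible because the lists combine the replicates of a group and hold no value per replicate. Fits with a replicate block, or leaving out replicate 1 or replicate 2, could therefore not be run. Limiting the FDR to at most 1e-05 in both lists left 7 treated peaks in the region in place of 12 and 20 control peaks, 13 of them lost, against 44% lost over the whole list, and the peaks at 54467751, 54572651, 54796201, 55189001 and 55299901 no longer had a treated counterpart or were themselves left out. When the control list was shortened to its strongest peaks, to the length of the treated list, 63.2% of the control peaks of the region were kept and 7 were lost, while 24.6% of the whole list were lost. Control peaks at an FDR of at most 1e-05 set against the whole treated list, an alternative chosen after seeing the data, gave 9 lost peaks, with 29.3% lost over the whole list. The 2 treated peaks that counted as arisen when more than 50% of the wider peak had to be shared were those at 54467801 and 55099051. The 22 other values stayed within 1.5 times the count or within the interval of the share. Since control peaks outnumber treated peaks, the lost share depends on the length of the lists, and the region holds too few peaks for a narrow interval.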
